A study of Mus musculus with 6 samples.

Results

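The 94 protein-coding cytochrome P450 genes of the mouse that carry a standard family symbol (Cyp, a family number, a subfamily letter and a member number) were examined among the 52636 genes counted in medullary thymic epithelial cells (mTEC). Members were selected by symbol, after the identifiers of the count table had been matched to gene names. The symbol rule uses no measured value, but the family was chosen for study with earlier results of these data known. The RNA came from tuft-like mTEC (3 libraries) and from non-tuft-like mTEC (3 libraries) of C57BL/6 mice aged 6 weeks. Both populations bound the lectin UEA1, were low for MHCII and negative for Sca1 and CD63. For CD80 the labels give them as negative, whereas the study's introduction and results describe mTEC of this kind as low. Tuft-like mTEC additionally stained for CD117 and CD66a, and non-tuft-like mTEC stained for neither. No transgene, treatment or deletion was involved. The sample labels do not say whether replicates came from separate animals, pools or sorts, so p-values measure only the spread between these libraries, which may be technical.

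Cytochromes P450 are haem enzymes that insert oxygen into lipophilic substrates. Some members carry out fixed steps in the metabolism of steroids, bile acids, vitamin D, retinoic acid and fatty acids, while the larger subfamilies clear drugs, plant compounds and other foreign chemicals. Many members are most abundant in liver, adrenal gland, gonad, kidney, gut, airway, olfactory mucosa or skin, which places them among the tissue-restricted genes that mTEC are known to transcribe, in part under the control of Aire, and to display to developing T cells. No other tissue was measured here, so tissue restriction itself was taken from this background and not tested.

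Reads counted on genes ranged from 20097617 to 48369825 per library. Levels are given as CPM, read counts brought to one common total per library, after TMM normalization, an edgeR scaling that corrects for library composition. Levels of single genes were ranked against each other on values divided by exon length (CPM per exon kb), whereas summed levels and shares of a sum are shares of reads, in which longer transcripts weigh more. At this depth a count of 0 allows a level of up to 0.0639 to 0.124 CPM, taken as 3 counts, and this limit covers counting error only. Reads on genes that these cells need not express were gauged from 1092 olfactory receptor genes, and a P450 gene was taken to lie above background in a library when its counts per exon kb exceeded the 99th percentile of those genes. Olfactory receptor genes are tissue-restricted themselves, so a gene under this level is not shown to be silent.

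The libraries differed in ways that touched the weakly counted P450 genes. The number of P450 genes with no read was 15, 10 and 1 in non-tuft-like replicates 1 to 3 and 1, 6 and 38 in tuft-like replicates 1 to 3. The summed olfactory receptor level was 629, 682 and 1518 CPM in the former and 2216, 1279 and 255 CPM in the latter. Tuft-like replicate 3 stood apart from all others on both measures, with the most P450 genes at 0 and the lowest olfactory receptor sum. The share of reads that HTSeq assigned to no gene was 34.4%, 36.6% and 52.5% in the non-tuft-like and 61.6%, 47.6% and 19.7% in the tuft-like libraries, again with tuft-like replicate 3 at the low end. Where leaving out this library gave a call of a P450 gene, that test is given as well. For the pathway genes only the number of such calls is given. The number of P450 genes above background varied less, at 31, 32 and 26 against 24, 23 and 24. Its cutoff, however, is set within each library. That cutoff was lowest in tuft-like replicate 3, at 45.7 counts per exon kb, and 56.4 to 86.3 in the other libraries. Similar numbers thus do not show that this measure was unaffected.

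**Figure D1:**
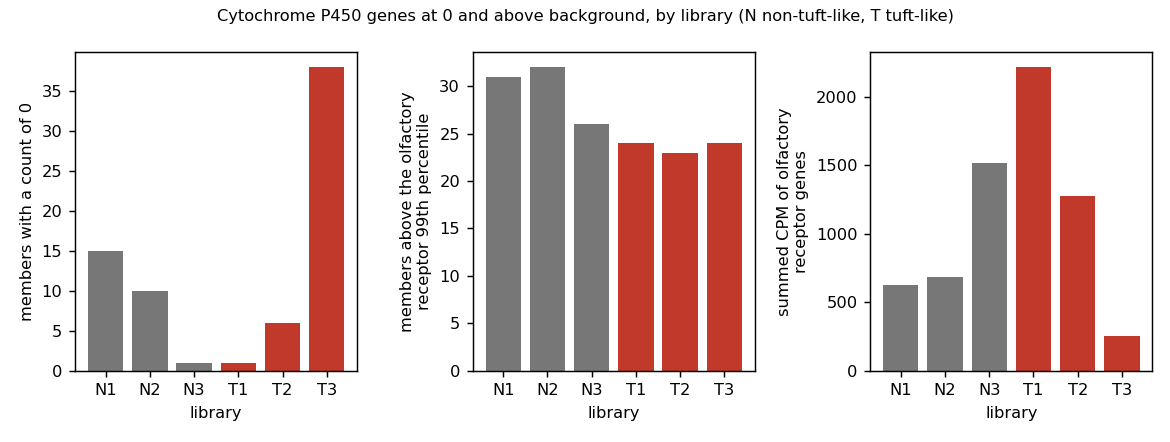
P450 genes with a count of 0 (left), P450 genes above the olfactory receptor 99th percentile (middle) and the summed CPM of 1092 olfactory receptor genes (right), as bars for each of the 6 libraries (grey, non-tuft-like; red, tuft-like). Tuft-like replicate 3 has 38 P450 genes at 0 and the lowest olfactory receptor sum (255 CPM). Its number of genes above background (24) equals that of tuft-like replicate 1, each against the cutoff of its own library.

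The labels of the populations were checked against marker genes. All 6 tuft cell genes examined (Dclk1, Trpm5, Pou2f3, Il25, Avil and Sh2d6) were called higher in tuft-like mTEC, against 1.16% called higher among all tested genes. Their summed level was 503, 531 and 427 CPM in the non-tuft-like against 7189.6, 10165 and 12154 CPM in the tuft-like libraries. Aire was counted at 341, 299 and 235 CPM in non-tuft-like and at 19.3, 23.4 and 18.8 CPM in tuft-like mTEC. Both separated the populations without overlap, the tuft cell genes in the direction that the labels give. Aire belongs to 5 genes of mature mTEC, which summed to 2512, 2615 and 2079 CPM in non-tuft-like and 350, 457 and 788 CPM in tuft-like mTEC. All 5 were lower in tuft-like mTEC without overlap and 3 (Aire, Fezf2 and H2-Aa) were called, none was at 0 in any library, and H2-Aa was the most abundant per exon kb. Among all tested genes, 8.85% were lower without overlap and 0.951% were called lower. Of 6 thymic epithelial genes, Krt14, a keratin of basal epithelial cells, was called lower (374.6, 311 and 277 CPM against 18.0, 29.4 and 38.2 CPM, log2 fold change -3.49, FDR 0.00089, edgeR), Krt5 and Ly75 were lower without overlap and not called, and Krt8, the most abundant per exon kb, overlapped. Their sum was 3808, 4166 and 3646 CPM against 2923, 4475 and 6788 CPM, and none was at 0.

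Of the marker genes of macrophages, blood cells, fibroblasts, endothelium and kidney tubule, 1 was called. This was Cd68, a lysosomal protein typical of macrophages, at 32.2, 37.1 and 48.7 CPM in non-tuft-like and 3.60, 4.44 and 3.92 CPM in tuft-like mTEC (log2 fold change -3.30, FDR 0.0028, edgeR; background 0.951% called lower). The 6 macrophage and dendritic cell genes summed to 357, 301 and 220.2 CPM against 191, 144 and 220.5 CPM, with Lyz2 the most abundant per exon kb and Itgax at 0 in 1 library. Among them Mrc1 was higher in tuft-like mTEC without overlap (background 7.18%) and was not called. It was counted at 13.7, 5.98 and 12.0 CPM against 13.9, 21.8 and 32.3 CPM (log2 fold change 1.10, FDR 0.649, edgeR). The 6 genes of thymocytes and other blood cells summed to 72.6, 118 and 95.7 CPM against 71.7, 73.7 and 33.9 CPM, with Cd8a and Cd79a at 0 in at least 1 library. Hbb-bs supplied most of this sum except in tuft-like replicate 1, at 27.3 CPM beside 33.7 CPM for Ptprc. Ptprc was counted at 3.41, 10.9 and 11.7 CPM against 33.7, 27.6 and 8.31 CPM, with overlap. The 6 genes of fibroblasts and endothelium summed to 36.8, 50.5 and 64.0 CPM against 228, 81.2 and 19.03 CPM, all 6 with a higher mean in tuft-like mTEC and all overlapping, Pecam1 reaching 106 CPM in tuft-like replicate 1. The 6 kidney tubule genes summed to 32.2, 34.6 and 55.2 CPM against 48.4, 43.8 and 11.2 CPM, with Umod and Lrp2 the most abundant per exon kb and with Slc34a1, Kap and Slc5a2 at 0 in at least 1 library. The part of any of these marker genes' cells in the differences described below was not tested.

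Most P450 genes were at background and a minority was clearly transcribed. Of the 94 genes, 49 exceeded background in no library, 16 exceeded it in all 6 libraries and another 7 (Cyp26a1, Cyp2d10, Cyp2d12, Cyp2d26, Cyp2s1, Cyp4f18 and Cyp4f39) did so in all 3 non-tuft-like libraries but not in every tuft-like library. No gene was above background in all 3 tuft-like libraries and not in all non-tuft-like libraries. Throughout the non-tuft-like and the tuft-like population, 23 and 16 of the 94 genes were thus above background. Among all 32496 tested genes these numbers were 10847 and 10155. Each library has its own cutoff, and its part in this imbalance was not tested. The remaining 22 genes exceeded background in some libraries without doing so throughout a population. Among the 71 genes outside these sets of 16 and 7, the highest mean level per exon kb was that of Cyp3a25 in the non-tuft-like population, at 4.85 CPM per exon kb, and that of Cyp4b1 in the tuft-like population, at 3.33 CPM per exon kb.

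Summed over all 94 genes, reads on P450 genes made up 1995, 1849 and 1718 CPM in the non-tuft-like libraries and 860.3, 1054 and 1535 CPM in the tuft-like libraries. The groups did not overlap, and tuft-like replicate 3 came nearest to the non-tuft-like libraries. The means were 1854 ± 139 and 1150 ± 347 CPM (SD, n = 3 libraries each). A single gene, Cyp2b19, supplied 20.7%, 29.2% and 24.4% of these reads in non-tuft-like and 2.78%, 3.30% and 7.52% in tuft-like mTEC. Without it the sums were 1581, 1309 and 1299 against 836, 1019 and 1419.7 CPM, and the groups overlapped through tuft-like replicate 3 alone. In these bulk samples, fewer cells of one kind and less RNA per cell cannot be told apart.

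Counts were compared by edgeR's quasi-likelihood F-test over all genes and called at a false discovery rate (FDR, after Benjamini and Hochberg) under 0.05. Of the 94 genes, 89 passed the filter on low counts. Cyp11b2, Cyp21a1, Cyp2c54, Cyp2d40 and Cyp2w1 did not and were not tested. One gene, Cyp2b19, was called, which is 1.12% of those tested, whereas 687 of all 32496 tested genes (2.11%) were called, of which 378 (1.16%) were higher and 309 (0.951%) lower in tuft-like mTEC. This share is near the background. Of the 89 genes, 14 (15.7%) had libraries that did not overlap between the populations, against 16.0% of all tested genes. Among these 14 genes, 11 were lower and 3 higher in tuft-like mTEC, while 8.85% and 7.18% of all genes did so in these directions. An unadjusted p under 0.05 was reached by 7 P450 genes (7.87%; background 8.97%), all of them lower in tuft-like mTEC. As log2 fold changes of tuft-like over non-tuft-like, the medians were -0.21 for the 89 genes and 0.02 for all tested genes. With RLE factors 2 P450 genes and 2.41% of all tested genes were called, with library size only 2 and 3.22%, with DESeq2 5 and 10.2%, with the likelihood ratio test 4 and 3.80%, with limma voom 2 and 2.78%, without the filter 4 and 2.36%, with a filter of at least 1 CPM in 3 libraries 2 and 3.76%, and with the replicate number as a block 3 and 2.27%. Leaving out non-tuft-like replicates 1, 2 and 3 in turn gave 1 P450 gene each time and 1.42%, 1.03% and 1.50% of all genes, and leaving out tuft-like replicates 1, 2 and 3 gave 2, 1 and 5 P450 genes and 2.19%, 1.05% and 2.45% of all genes. The gene called was Cyp2b19 in the first 3 of these cases and Cyp26a1 alone without tuft-like replicate 2, while without tuft-like replicate 3 Cyp26a1, Cyp2a5, Cyp2b19, Cyp2f2 and Cyp4f39 were called.

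**Figure D2:**
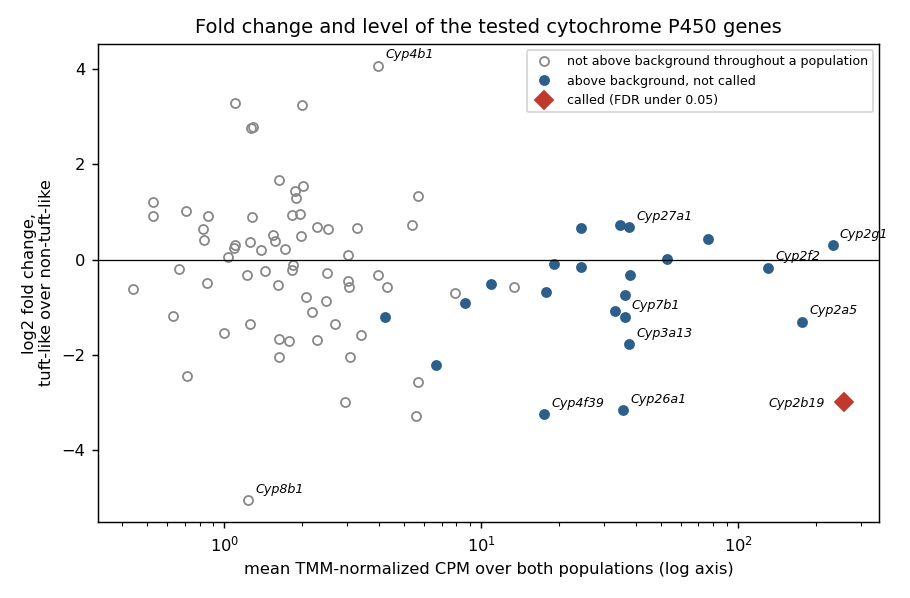
Log2 fold change (tuft-like over non-tuft-like, vertical axis) against the mean CPM over both populations (horizontal log axis) for the 89 tested P450 genes. Open circles are genes not above background throughout a population, blue points are genes above background that were not called, and the red diamond is Cyp2b19, the one gene called, at -2.98. The widest scatter lies among weakly counted genes, from Cyp8b1 (-5.05) to Cyp4b1 (4.07).

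The most abundant P450 transcripts came from one gene cluster. On chromosome 7, 13 members of subfamilies Cyp2a, Cyp2b, Cyp2f, Cyp2g, Cyp2s and Cyp2t lie between positions 25802475 and 27158668 (mm10). The cluster supplied 61.3%, 60.7% and 58.5% of the reads on P450 genes in non-tuft-like and 36.5%, 47.2% and 59.7% in tuft-like mTEC, so that the groups overlapped through tuft-like replicate 3 alone. Only 5 of its genes (Cyp2s1, Cyp2b19, Cyp2g1, Cyp2a5 and Cyp2f2) were above background throughout a population. Per exon kb, the mean levels in non-tuft-like mTEC were 121 CPM for Cyp2a5, 109.7 for Cyp2b19, 97.2 for Cyp2g1 and 68.1 for Cyp2f2, the 4 highest of all 94 members, and the libraries of neighbours in this order overlapped. In tuft-like mTEC the order was Cyp2g1 (119.8 CPM per exon kb), Cyp2f2 (60.9) and Cyp2a5 (49.3), and Cyp2b19 (13.9) took rank 8. The libraries of the first 3 overlapped here too, and the place of Cyp2f2 rested on tuft-like replicate 3, with 10.6, 18.2 and 154 CPM per exon kb in replicates 1 to 3 against 16.7, 38.4 and 92.9 for Cyp2a5. Some adjacent genes had very unequal levels, such as Cyp2b23, at 1.16 CPM per exon kb in non-tuft-like mTEC, beside Cyp2b19. The consecutive genes Cyp2b19, Cyp2g1 and Cyp2a5 had similar levels in that population.

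**Figure D3:**
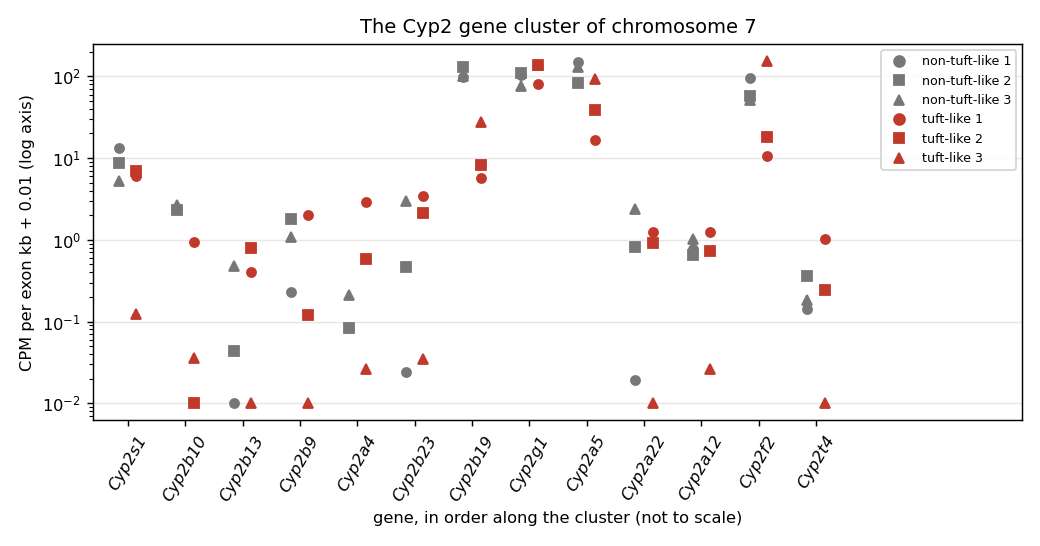
CPM per exon kb, with 0.01 added so that zeros can be drawn (vertical log axis), for the 13 P450 genes of the chromosome 7 cluster in chromosomal order (horizontal axis, not to scale), 1 symbol per library (grey, non-tuft-like; red, tuft-like). Cyp2b19, Cyp2g1, Cyp2a5 and Cyp2f2 stand above the other genes of the cluster in all 6 libraries, except that Cyp2s1 lies slightly above Cyp2b19 in tuft-like replicate 1, and the populations are apart for Cyp2b19 and together for Cyp2g1.

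Cyp2b19, known as an arachidonic acid epoxygenase of mouse epidermal keratinocytes, was the one P450 gene with a significant difference. The gene (ENSMUSG00000066704) occupies chr7:26757142-26772630 on the plus strand. It was counted at 413, 540.4 and 419 CPM in non-tuft-like and at 23.9, 34.7 and 115 CPM in tuft-like mTEC. Every tuft-like library lay below every non-tuft-like library, tuft-like replicate 3 was the nearest, and in all 6 the gene exceeded background, by at least 36.6 times in the former and 2.07 times in the latter. The mean was 457 ± 71.9 CPM for the non-tuft-like and 58.0 ± 49.98 CPM for the tuft-like libraries (SD, n = 3 each), a 7.89-fold lower level in the latter. The log2 fold change was -2.98 with a standard error of 0.55 (FDR 0.0201, edgeR). An exact permutation test of this gene alone gave p = 0.1 (two-sided), the smallest value that 3 libraries against 3 allow. At an FDR of 0.05 the call was kept in 13 of 14 alternative settings. It was lost without tuft-like replicate 2, with a log2 fold change of -2.71 (FDR 0.0838, edgeR), and a value of -4.0 was obtained without tuft-like replicate 3 (FDR 0.0012, edgeR).

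The sequence around the start of Cyp2b19 is printed because it is the start site of the called gene. The window runs from 250 bases before to 50 bases after the RefSeq start (GRCm38.p6, chr7:26756892-26757191, plus strand), and capitals mark AGGTCA, the core sequence bound by many nuclear receptors, at bases 130 to 135.
Cyp2b19 promoter: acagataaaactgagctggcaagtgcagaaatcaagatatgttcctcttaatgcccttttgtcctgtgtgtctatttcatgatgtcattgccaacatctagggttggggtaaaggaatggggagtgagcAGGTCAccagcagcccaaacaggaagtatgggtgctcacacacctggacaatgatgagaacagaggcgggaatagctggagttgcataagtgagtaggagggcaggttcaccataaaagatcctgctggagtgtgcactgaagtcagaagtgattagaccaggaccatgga
AGGTCA was found on either strand in 16.3% of all 32851 promoter windows and in 26.5% of the 83 windows that belong to 73 of the 94 members. This motif, like those below, was chosen after the sequences had been seen, and a match does not show binding.

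Of 8 genes of keratinocyte differentiation, 4 (Flg, Ivl, Dmkn and Sbsn) were called lower in tuft-like mTEC and none higher, against 0.951% called lower among all tested genes. Krt1, Krt10, Lor and Krtdap were not called (FDR 0.252, 0.811, 0.187 and 0.0917, edgeR). All 8 had a lower mean, and none was at 0 in any library. Their summed level was 3232, 5134 and 5370.3 CPM in non-tuft-like against 136, 478 and 1310 CPM in tuft-like mTEC, with Krtdap the most abundant per exon kb. Within the tuft-like libraries, the sum was lowest in replicate 1 and highest in replicate 3, in the same order as Cyp2b19. Within the non-tuft-like libraries the orders differed, with the sum highest in replicate 3 and Cyp2b19 in replicate 2. Krt14 and Krt5, keratins of basal keratinocytes as well as of thymic epithelium, were also lower without overlap, and Krt14 was called. The part of keratinocyte-type transcription in the difference of Cyp2b19 was not tested.

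Cyp2g1, an enzyme typical of the olfactory mucosa, showed no difference between the populations beyond the spread between libraries. It lies next to Cyp2b19 at chr7:26808892-26821205. Its level was 223, 238 and 164 CPM in non-tuft-like and 175, 299 and 297 CPM in tuft-like mTEC. The groups overlapped, and the gene exceeded background by at least 27.9 times in every library. No difference was called (log2 fold change 0.30, standard error 0.31, FDR 1.0, edgeR).

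Cyp2a5, the coumarin hydroxylase of liver and olfactory mucosa (chr7:26835305-26843548), was counted at 315, 171 and 267 CPM in non-tuft-like and at 34.6, 79.5 and 193 CPM in tuft-like mTEC. The groups overlapped through tuft-like replicate 3 alone. The log2 fold change was -1.29 with a standard error of 0.53 (FDR 0.455, edgeR), and it was -2.17 without that library (FDR 0.0427, edgeR). Of the 50-base stretches of Cyp2a5, 37.0% also occur in other genes, chiefly Cyp2a4, so that its counts are uncertain.

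Cyp2f2, the club cell enzyme that activates naphthalene in the airway (chr7:27119909-27133660), varied widely between the tuft-like libraries. It was counted at 196, 115 and 103 CPM in non-tuft-like and at 21.4, 36.8 and 311 CPM in tuft-like mTEC. Tuft-like replicate 3 had the highest value of all 6 libraries and the other two tuft-like libraries the lowest values. With all libraries the log2 fold change was -0.16 with a standard error of 0.80 (FDR 1.0, edgeR), against -2.28 without tuft-like replicate 3 (FDR 0.0244, edgeR). Its exons overlap 274 bases of a gene on the opposite strand, and how the counting treated strand is not given in the sources used here. The summed level of 5 genes of the airway and olfactory epithelium (Scgb1a1, Scgb3a2, Bpifa1, Cbr2 and Omp, the last a marker of olfactory sensory neurons) was 612, 655 and 336 CPM in non-tuft-like and 134, 192 and 423 CPM in tuft-like mTEC, with Bpifa1 the most abundant per exon kb, none at 0 and none called. Among tuft-like libraries this sum was also highest in replicate 3, and its part in the values of Cyp2f2 was not tested.

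The other genes of the cluster had lower mean levels per exon kb in both populations. Cyp2s1 was counted at 66.0, 42.5 and 25.6 CPM in non-tuft-like and at 29.5, 34.2 and 0.552 CPM in tuft-like mTEC, with overlap. Cyp2b10, the classical phenobarbital-inducible enzyme of liver, was counted at 5.21, 4.81 and 5.69 CPM in non-tuft-like and at 1.94, 0 and 0.0552 CPM in tuft-like mTEC. Its groups did not overlap, but the level was near background and the test did not call it (log2 fold change -2.98, standard error 1.77, FDR 0.873, edgeR). With single libraries left out, its log2 fold change ranged from -7.38 to -2.40.

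**Figure D4:**
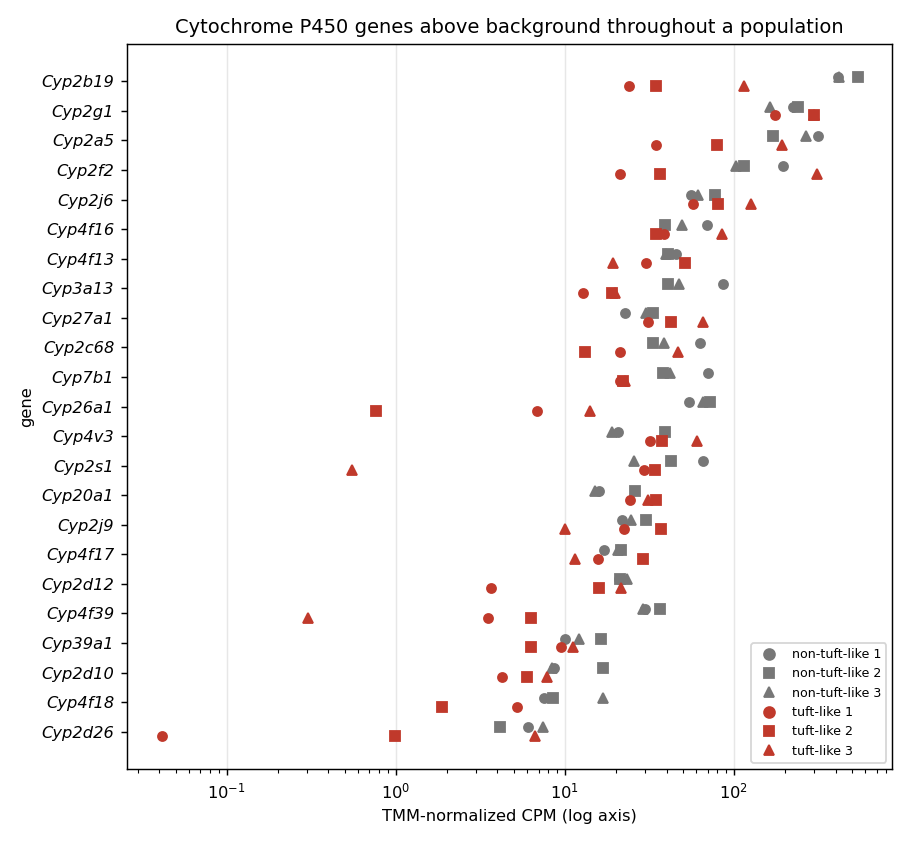
TMM-normalized CPM (horizontal log axis) of the 23 P450 genes that lay above background throughout at least 1 population, 1 symbol per library (grey, non-tuft-like; red, tuft-like), ordered by mean level. The populations are apart for Cyp2b19, Cyp3a13, Cyp26a1, Cyp7b1, Cyp4f39, Cyp2d10 and Cyp4f18 and overlap for the other genes. Cyp26a1, Cyp4f39, Cyp2d10 and Cyp4f18 are drawn through their non-tuft-like levels alone, which favours separation. Among all tested genes, 16.0% did not overlap. The count of 0 of Cyp4f18 in tuft-like replicate 3 cannot be drawn on this axis.

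Reads on the genes of retinoic acid breakdown lay almost wholly on Cyp26a1 in non-tuft-like mTEC. Cyp26a1, Cyp26b1 and Cyp26c1 hydroxylate and inactivate retinoic acid, and their summed level was 60.1, 75.9 and 71.3 CPM in non-tuft-like and 10.7, 1.72 and 14.1 CPM in tuft-like mTEC. Cyp26a1 (ENSMUSG00000024987, chr19:37697798-37701536, plus strand) was counted at 54.4, 72.4 and 65.5 CPM in the former and at 6.82, 0.760 and 14.1 CPM in the latter. All tuft-like libraries were below all non-tuft-like libraries, and tuft-like replicate 2 was under background. The mean was 8.89-fold lower in tuft-like mTEC, and the log2 fold change was -3.15 with a standard error of 0.78. This did not pass the test (FDR 0.0814, edgeR). It passed in 7 of 14 alternative settings, with an FDR of 0.0432 without tuft-like replicate 3 and 0.0243 without tuft-like replicate 2 (edgeR). With single libraries left out, the log2 fold change of Cyp26a1 ranged from -4.14 to -2.61. Cyp26b1 and Cyp26c1 had means of 3.50 and 1.48 CPM in the non-tuft-like and 1.09 and 0.510 CPM in the tuft-like population, with overlap.

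Cyp26a1 is known to be induced by retinoic acid through paired receptor half-sites in its promoter, and its window is printed for that reason (GRCm38.p6, chr19:37697558-37697857, plus strand). Capitals mark the reverse complement of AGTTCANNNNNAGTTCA at bases 219 to 235, an arrangement of the kind that retinoic acid receptors bind.
Cyp26a1 promoter: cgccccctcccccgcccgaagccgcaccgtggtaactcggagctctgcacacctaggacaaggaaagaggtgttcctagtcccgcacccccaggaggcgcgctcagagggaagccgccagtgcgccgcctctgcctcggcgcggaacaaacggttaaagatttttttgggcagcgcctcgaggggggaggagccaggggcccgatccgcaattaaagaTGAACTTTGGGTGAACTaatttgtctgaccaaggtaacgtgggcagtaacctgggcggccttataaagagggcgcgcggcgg
This spaced repeat was found on either strand in 8 of the 32851 windows (0.0244%) and in no other window of a P450 gene. The single AGTTCA, which it contains, was found in 14.0% of all windows and 15.7% of the P450 windows.

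Genes of retinoid metabolism and binding were examined alongside. They do not all act towards making retinoic acid, so their levels do not measure its supply. Stra6, the cell surface receptor for retinol bound to its carrier, was counted at 145, 127 and 96.6 CPM in non-tuft-like and at 12.4, 6.75 and 27.5 CPM in tuft-like mTEC, and was called (log2 fold change -2.98, standard error 0.49, FDR 0.0102, edgeR). It was the one gene called of 9 genes of retinoid metabolism and binding, against 0.951% called lower among all tested genes. All 9 had a lower mean in tuft-like mTEC, 4 of them (Stra6, Dhrs3, Crabp1 and Crabp2) without overlap (background 8.85%), and their median log2 fold change was -1.52. The mature mTEC and keratinocyte marker genes were also lower, with medians of -2.35 and -3.11, and their part in these values was not tested. Aldh1a3, which makes retinoic acid from retinal, overlapped between the populations, at 72.3, 76.7 and 37.1 CPM against 44.1, 34.0 and 107 CPM, with a log2 fold change of -0.01. The log2 fold changes were -0.12 for Aldh1a1, -1.52 for Aldh1a2, -1.16 for Rdh10 and -2.06 for Lrat, all with overlap. None of the 6 retinoid receptor genes was called, and they lay in both directions. Rxra was counted at 41.0, 26.5 and 27.8 CPM against 10.2, 3.65 and 6.90 CPM (log2 fold change -2.20, FDR 0.0631, edgeR), without overlap, and Rxrb at 7.54, 14.9 and 26.3 CPM against 12.7, 45.5 and 72.2 CPM (log2 fold change 1.42, FDR 0.542, edgeR), with overlap. The log2 fold changes of the others were 2.38 for Rxrg, 0.96 for Rara, -0.55 for Rarb and -1.02 for Rarg.

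**Figure D5:**
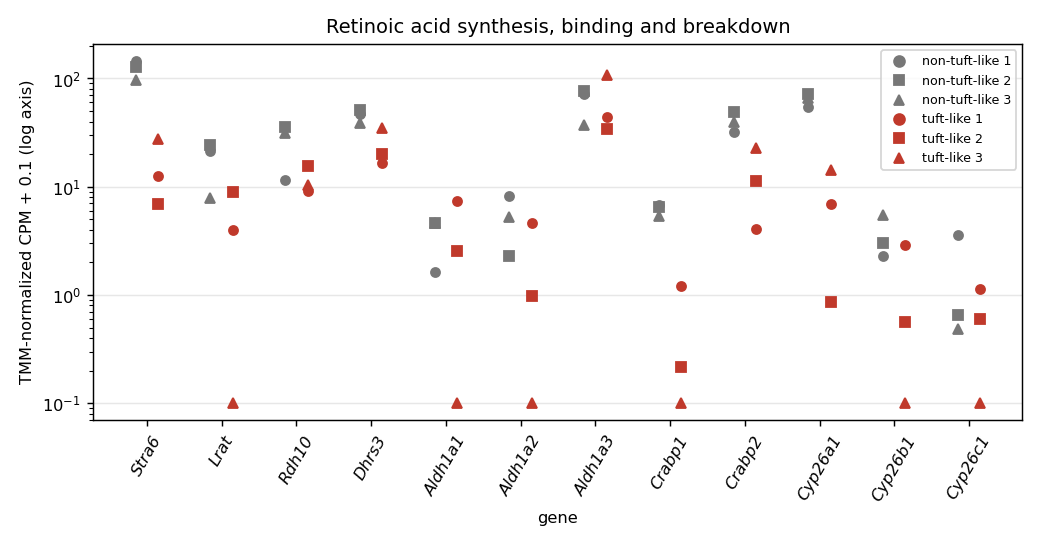
TMM-normalized CPM, with 0.1 added so that zeros can be drawn (vertical log axis), of 9 genes of retinoid metabolism and binding and the 3 Cyp26 genes (horizontal axis), 1 symbol per library (grey, non-tuft-like; red, tuft-like). Stra6, Crabp1, Crabp2 and Cyp26a1 are separated between the populations, whereas Aldh1a3 overlaps.

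Cyp3a13, a xenobiotic and steroid hydroxylase of liver and intestine, came closest to the threshold without passing it. The gene (ENSMUSG00000029727) occupies chr5:137892932-137921619 on the minus strand. It was counted at 86.4, 40.8 and 47.1 CPM in non-tuft-like and at 12.8, 18.9 and 19.7 CPM in tuft-like mTEC. The groups did not overlap, and non-tuft-like replicate 1 was the highest. Its log2 fold change was -1.76 with a standard error of 0.39 (FDR 0.05005, just above the threshold, edgeR), and 6 of 14 alternative settings called it. It was the one Cyp3a member above background throughout a population. The 8 enterocyte genes examined summed to 292, 164 and 195 CPM in non-tuft-like and 88.9, 90.9 and 171 CPM in tuft-like mTEC, again with non-tuft-like replicate 1 the highest. All 8 had a lower mean in tuft-like mTEC, 1 (Apoa4) was called lower (background 0.951%), and 2 (Fabp2 and Alpi) were at 0 in tuft-like replicate 3. Of the 1815 exon bases of Apoa4, 1266 overlap a gene on the opposite strand, so that its counts are uncertain. Per exon kb, Apoa4 was the most abundant of the 8 in non-tuft-like and Vil1 in tuft-like mTEC. The part of these 8 genes in the values of Cyp3a13 was not tested.

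The Cyp3a13 window is printed because it holds a repeated match (GRCm38.p6, chr5:137921570-137921869, minus strand). Capitals mark TGACTCA, the core sequence of AP-1 sites, at bases 160 to 166 and, on the other strand, at bases 245 to 251.
Cyp3a13 promoter: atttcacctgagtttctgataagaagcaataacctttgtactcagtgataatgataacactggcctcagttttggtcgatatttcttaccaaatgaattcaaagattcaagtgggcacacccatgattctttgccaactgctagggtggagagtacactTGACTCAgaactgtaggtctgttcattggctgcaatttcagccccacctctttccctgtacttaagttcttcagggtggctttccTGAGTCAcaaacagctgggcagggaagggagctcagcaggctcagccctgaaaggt
TGACTCA was found in 5.20% of all windows and in 6.02% of the P450 windows. The other 6 Cyp3a members selected by symbol lie together on chromosome 5 between positions 145345279 and 146113287, and 4 of them exceeded background in no library. Cyp3a44, whose libraries did not overlap, was counted at 0.820, 0.106 and 2.16 CPM in non-tuft-like and at 3.55, 3.22 and 2.24 CPM in tuft-like mTEC (log2 fold change 1.54, FDR 1.0, edgeR), and 26.5% of its 50-base stretches are shared with other genes.

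Family 4, which hydroxylates fatty acids and eicosanoids, had 17 members selected by symbol, of which 6 were above background throughout a population. Cyp4a12a, Cyp4a12b and Cyp4a30b have symbols outside the pattern and were left out. None of them was called, and Cyp4a12b reached 10.2 CPM in tuft-like replicate 3. The summed level of the 17 members was 201, 212 and 201 CPM in non-tuft-like and 178, 191 and 191 CPM in tuft-like mTEC. This total was lower in tuft-like mTEC by a small margin and without overlap. This difference rested on Cyp4f39, without which the sums were 171, 175 and 172 CPM against 174, 185 and 191 CPM, with overlap and with a higher mean in tuft-like mTEC. Of the 17 members, 10 had a higher mean and 7 a lower mean in tuft-like mTEC, and the median log2 fold change was 0.38. None was called. Cyp4f16 was the most abundant per exon kb, and was counted at 69.2, 39.0 and 49.4 CPM against 38.6, 34.5 and 85.3 CPM, with overlap and a log2 fold change of 0.01 (standard error 0.40).

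Cyp4f39, in the Cyp4f cluster of chromosome 17 (chr17:32452723-32493320), exceeded background in every non-tuft-like library and in 1 tuft-like library. This enzyme, the mouse counterpart of human CYP4F22, makes the very long hydroxy fatty acids of the skin barrier. It was counted at 29.8, 36.4 and 29.1 CPM in non-tuft-like and at 3.51, 6.31 and 0.304 CPM in tuft-like mTEC. All tuft-like libraries were far below the non-tuft-like libraries, and the lowest was replicate 3. The log2 fold change was -3.23 with a standard error of 0.86 (FDR 0.109, edgeR), which did not pass the test. Without tuft-like replicate 3 it was -2.73 (FDR 0.0131, edgeR), and 5 of 14 alternative settings called the gene. The adjacent Cyp4f17 and Cyp4f16 and the more distant Cyp4f13 overlapped between the populations, with mean levels of 19.7 and 18.7, 52.5 and 52.8, and 41.9 and 33.6 CPM in non-tuft-like and tuft-like mTEC. The keratinocyte genes described with Cyp2b19 also summed to less in tuft-like mTEC, but among tuft-like libraries Cyp4f39 was lowest where their sum was highest, and their part in its values was not tested.

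Several weak members of family 4 lay in either direction. Cyp4f18 was counted at 7.51, 8.52 and 16.9 CPM against 5.25, 1.87 and 0 CPM, and Cyp4f15 at 5.84, 4.39 and 4.99 CPM against 2.98, 2.13 and 0 CPM, both without overlap and not called. Cyp4x1 was counted at 2.81, 4.53 and 4.80 CPM against 7.44, 6.11 and 6.46 CPM, without overlap (log2 fold change 0.72, FDR 1.0, edgeR), and its exons overlap 450 bases of an antisense gene. Cyp4b1 had the highest fold change of the family but rested on few libraries, with 2, 3 and 38 counts in non-tuft-like and 460, 118 and 2 counts in tuft-like mTEC (log2 fold change 4.07, standard error 1.91, FDR 0.604, edgeR).

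Of the 6 sterol and bile acid hydroxylases, Cyp27a1, Cyp7b1 and Cyp39a1 were above background in all 6 libraries. Cyp27a1, the mitochondrial enzyme of the acidic bile acid pathway (chr1:74713574-74737892), was counted at 22.7, 33.3 and 30.4 CPM in non-tuft-like and at 31.0, 42.6 and 65.8 CPM in tuft-like mTEC. The groups overlapped (log2 fold change 0.69, standard error 0.37, FDR 0.751, edgeR). Cyp7b1, the oxysterol hydroxylase (chr3:18071950-18243338), was counted at 70.6, 38.2 and 41.8 CPM in the former and at 21.1, 22.1 and 22.8 CPM in the latter. Here the groups did not overlap and the tuft-like libraries were nearly alike. Its log2 fold change was -1.19 with a standard error of 0.35 (FDR 0.158, edgeR), called in 1 of 14 alternative settings, DESeq2.

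Cyp7a1 and Cyp8b1, enzymes of liver bile acid synthesis, were above background in at most 1 library. Cyp7a1, the rate-limiting enzyme, was counted at 0.0316, 0.213 and 4.70 CPM in non-tuft-like and at 3.60, 3.39 and 0.0276 CPM in tuft-like mTEC. It exceeded background in no library, and its order followed neither population. Cyp8b1, which directs synthesis to cholic acid, had 165, 56 and 26 counts in non-tuft-like and 3, 3 and 0 counts in tuft-like mTEC, without overlap. It exceeded background in non-tuft-like replicate 1 alone. Its fitted log2 fold change of -5.05 (standard error 2.03, FDR 0.430, edgeR) depends on the prior count of the fit and was not called. Cyp46a1, the cholesterol hydroxylase of brain, was below background in all libraries, at 2.62 CPM and 1.52 CPM on average. The 8 hepatocyte genes examined summed to 201, 96.6 and 82.4 CPM in non-tuft-like and 71.4, 53.4 and 78.1 CPM in tuft-like mTEC, with Apoa1 the most abundant per exon kb and none called.

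The genes of steroid hormone synthesis were at background. Of the 6 genes, 5 exceeded background in no library, and Cyp11a1, the side-chain cleavage enzyme that starts the pathway, did so in 1 non-tuft-like library. Cyp11a1 was counted at 7.57, 11.7 and 10.1 CPM in non-tuft-like and at 10.5, 7.54 and 0.0276 CPM in tuft-like mTEC, so that tuft-like replicate 3 alone was low. Cyp17a1, the branch point enzyme to androgens and cortisol, averaged 2.99 and 1.39 CPM, Cyp19a1, the aromatase, 1.96 and 3.08 CPM, and Cyp11b1, which completes corticosterone, 1.21 and 0.222 CPM in non-tuft-like and tuft-like mTEC. Each of these overlapped between the populations. Cyp11b2, the aldosterone synthase, and Cyp21a1, the adrenal hydroxylase, were at 0 in most libraries. The adrenal and gonadal genes examined alongside (Nr5a1, Star, Mc2r, Lhcgr, Insl3 and Akr1b7) summed to 27.5, 20.2 and 27.0 CPM against 32.3, 18.4 and 4.25 CPM, and none was called.

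The enzymes of vitamin D metabolism were also at background, whereas the vitamin D receptor was not. Cyp2r1, Cyp27b1 and Cyp24a1, which carry out the activation and breakdown of vitamin D, exceeded background in no library and summed to 6.63, 1.75 and 8.23 CPM in non-tuft-like and 10.7, 5.99 and 0.0276 CPM in tuft-like mTEC. Tuft-like replicate 3 was again the lowest and the groups overlapped. Vdr, the receptor, was counted at 150.1, 208 and 171 CPM in non-tuft-like and at 40.7, 49.5 and 54.0 CPM in tuft-like mTEC, and was called lower (log2 fold change -1.88, standard error 0.28, FDR 0.0056, edgeR). It was the one gene called among 21 nuclear receptors and Ahr, beside the background of 0.951% called lower.

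Among the remaining enzymes of foreign compound metabolism, few were above background and none was called. Of 8 Cyp2j epoxygenases, Cyp2j6 and Cyp2j9 were above background throughout, with Cyp2j6 at 56.0, 77.4 and 61.3 CPM in non-tuft-like and 57.2, 80.9 and 126 CPM in tuft-like mTEC. Of 15 Cyp2c genes, 13 exceeded background in no library and Cyp2c68 alone exceeded it throughout, at 63.4, 33.4 and 38.6 CPM against 21.2, 13.1 and 47.0 CPM, with overlap and with 43.3% of its 50-base stretches shared with other genes. Of 8 Cyp2d genes, Cyp2d10, Cyp2d12 and Cyp2d26 were above background in all non-tuft-like libraries. Of the 3 Cyp1 genes, which are induced through the aryl hydrocarbon receptor, Cyp1b1 was counted at 9.25, 8.81 and 10.9 CPM in non-tuft-like and at 4.92, 0 and 0 CPM in tuft-like mTEC, without overlap (log2 fold change -2.56, FDR 1.0, edgeR). It was called without tuft-like replicate 1 (FDR 0.0134, edgeR), where every remaining tuft-like library was at 0. Among orphan enzymes, Cyp20a1 averaged 18.99 CPM in the non-tuft-like and 30.0 CPM in the tuft-like population, and Cyp2ab1 was counted at 0, 0 and 1.14 CPM against 2.23, 5.20 and 3.45 CPM, without overlap but under background (log2 fold change 3.25, FDR 0.943, edgeR). With single libraries left out, the log2 fold change of Cyp2ab1 ranged from 2.66 to 9.96.

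Genes that P450 enzymes depend on were transcribed in both populations. Por, the reductase that passes electrons to the P450 enzymes of the endoplasmic reticulum, was counted at 155.6, 155.3 and 158 CPM in non-tuft-like and at 87.6, 119.4 and 133 CPM in tuft-like mTEC. The groups did not overlap, and the difference was small (log2 fold change -0.46, standard error 0.27, FDR 0.840, edgeR). Of 10 redox partners 9 and of 8 genes of haem synthesis 7 were above background throughout each population, and none of either list was called. Of 82 genes in the 7 lists of partners, regulators, linked pathways and P450 genes with other symbols, 80 were tested and 4 (5.0%; background 2.11%) were called, all lower in tuft-like mTEC. Besides Stra6 and Vdr these were Ephx1, which hydrolyses the epoxides that P450 enzymes form, and Gsta2, a glutathione transferase. Ephx1 was counted at 88.3, 86.0 and 59.1 CPM against 33.4, 30.2 and 22.8 CPM (log2 fold change -1.43, standard error 0.30, FDR 0.0393, edgeR), and Gsta2 at 75.0, 71.6 and 65.5 CPM against 14.4, 18.97 and 25.5 CPM (log2 fold change -1.85, standard error 0.32, FDR 0.0144, edgeR). In both, all tuft-like libraries lay below all non-tuft-like libraries. Among the 19 genes of epoxide hydrolysis and conjugation to which they belong, 10 were lower without overlap (background 8.85%) and the median log2 fold change was -0.77, against 0.02 for all tested genes. The median was -2.35 for the 5 mature mTEC genes and -3.11 for the 8 keratinocyte genes, which were also lower in tuft-like mTEC, and their part in these values was not tested. Cyp51, the lanosterol demethylase of cholesterol synthesis, is a P450 gene whose symbol lies outside the pattern, and it was counted at 98.3, 78.0 and 93.8 CPM against 35.5, 40.5 and 67.9 CPM, without overlap and not called (log2 fold change -0.91, standard error 0.32, FDR 0.292, edgeR).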

How the data were processed

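Trimming (Trimmomatic 0.36), alignment to mm10 (STAR 2.7.3a) and counting by gene (HTSeq) were done by the authors, who deposited raw whole read counts. The strand setting and annotation release are not given in the sources used here. Cells were sorted into trizol per the methods, and a column kit is named for the RNA per the labels; libraries were made with an ultra-low input protocol. Rows for reads assigned to no single gene, 27.1% to 66.6% of all reads, were left out. Gene names were taken from GENCODE release M21, which held 99.7% of the gene rows.

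Low genes were removed with filterByExpr at a minimum count of 10 and a minimum total of 15. TMM factors and the quasi-likelihood F-test of edgeR 4.0.16 (R 4.3.3) were then used to compare the populations, with no covariate. The common biological coefficient of variation was 1.10. Standard errors were taken as the absolute log2 fold change over the square root of F. The pipeline was tested on simulated data. Sharing of sequence was counted as 50-base stretches of a gene's exons found in other genes' transcripts, and 33 of the 94 members shared 10% or more. Exons of 18 members overlap another gene, 11 of them on the other strand.

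Groups came from the sample labels. Correlations of deviations from the group means were -0.16, -0.06 and -0.33 for replicate numbers 1, 2 and 3, so numbers were not used as pairs. Named were the gene called, the 8 highest per exon kb in each population, up to 5 non-overlapping genes per direction with the largest fold change, all members of the steroid, bile acid, vitamin D and retinoic acid groups, pathway genes called, and Por; others mentioned were chosen after their values were seen. The members and lists were chosen with earlier results of these data known. Alternatives were RLE factors, library size only, DESeq2 1.42.0, the likelihood ratio test, limma voom (limma 3.58.1), other filters, FDR 0.01, the replicate number as a block, another background percentile and each library left out. Promoter sequences were those of RefSeq (GRCm38.p6), and protein sequences were not used here. One gene of the pathway lists is not reported here.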

Additional observations from a re-analysis of the deposited data

Results flagged for a closer look

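Pseudogenes of the P450 family lie outside the comparisons above. Of 21 such rows, 19 had more than 3 counts in at least 1 library. They summed to 504, 809 and 630 counts in non-tuft-like and 734, 601 and 10 counts in tuft-like mTEC, so that tuft-like replicate 3 was the lowest. The same library had the most P450 genes at 0. None exceeded background in all libraries of a population, and edgeR tested 10 and called 0.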

How the results depend on the processing

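Calls among all genes numbered 687, and 319 at an FDR of 0.01, 1045 with library size only, 1904 with DESeq2, 1236 with the likelihood ratio test, 1127 without the filter and 376 to 922 when single libraries were left out (376 without tuft-like replicate 2, 379 without non-tuft-like replicate 2). P450 genes called numbered 1, and 0 at an FDR of 0.01, 2 with RLE, library size only, limma voom or at least 1 CPM in 3 libraries, 5 with DESeq2 (Cyp26a1, Cyp2b19, Cyp3a13, Cyp4f39 and Cyp7b1), 4 with the likelihood ratio test or without the filter and 1 to 5 when single libraries were left out (5 without tuft-like replicate 3, 2 without tuft-like replicate 1). With the replicate number as a block 3 were called (Cyp26a1, Cyp2b19 and Cyp4f39) and 737 genes in all; the numbers are not shown to pair the samples. Pathway genes called numbered 4, and 10 with library size only, 14 with DESeq2, 8 with the likelihood ratio test, 7 without the filter and 2 to 10 when single libraries were left out (10 without tuft-like replicate 3, 2 without tuft-like replicate 2 or non-tuft-like replicate 2). Above background throughout a population were 31 genes at the 95th percentile, against 23. The cause of these shifts was not tested.

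Of the fold changes of 30 named genes under 14 settings (13 for Cyp11b1, Cyp26c1 and Cyp8b1), 375 values kept direction and side of the threshold, 22 passed it newly, 1 no longer passed and 19 reversed, none of the latter called. Cyp4f16 (0.01) was -0.10 with library size only or at least 1 CPM, -0.020 with limma voom, -0.0082 without the filter and -0.078 with the block. With limma voom Cyp17a1 was 0.22 and Cyp19a1 -1.28. With single libraries left out, values ranged from -0.56 to 0.24 for Cyp4f16, -2.28 to 0.34 for Cyp2f2, -2.55 to 0.12 for Cyp26c1, -0.033 to 4.18 for Cyp7a1, -0.66 to 0.32 for Cyp2r1 and -1.02 to 2.06 for Cyp19a1.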
